A study of Heterocephalus glaber and Mus musculus with 9 samples.

Results

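The autophagy and mitophagy genes are the rows whose symbol starts with Atg or Ulk followed by a number, or with Wipi, Gabarap, Map1lc3 or Bnip3, together with 13 named partners. This rule found 31 of the 12946 genes of the table, 24 by the start of the symbol and 7 of the 13 by name. Becn1, Nbr1, Tax1bp1, Rb1cc1, Fundc1 and Uvrag have no row under these symbols, and no row starts with Bnip3. Atg3, Atg4a, Atg13, Atg14 and Atg16l1 are likewise not among the rows, so none of these genes were analysed here. RNA was sequenced from the spleens of 9 healthy, untreated animals, with 1 library per animal and 3 animals per group. The mice were wild-type C57Bl/6N males of 2 months. The naked mole-rats (NM-Rs) came as a cohort with small spleens (ssNM-R, numbered 2, 3 and 6) and a cohort with enlarged spleens (lsNM-R, numbered 1, 4 and 5). The ssNM-Rs were males of 30, 26 and 23 months. The lsNM-Rs were a male of 24 months, a female of 29 months and a male of 23 months. Species, age, housing temperature, genome and gene annotation all differ between mice and NM-Rs and cannot be told apart in these data.

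Macroautophagy encloses cytoplasm in a double membrane, the phagophore, which closes into an autophagosome and fuses with lysosomes. The ULK kinases start the process, a class III PI3-kinase marks the membrane, ATG9 and ATG2 supply lipid, and ubiquitin-like conjugation attaches ATG8 proteins (the LC3 and GABARAP families) to it. Mitophagy is the removal of mitochondria by the same route, with PINK1 as a sensor of damaged mitochondria and receptors such as optineurin and NDP52 as links to ATG8. In the erythroid lineage, which the spleen of rodents can harbour, maturing red cells clear their mitochondria by mitophagy.

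The ATG8 genes were set side by side by their coding ends, because ATG4 proteases cut these proteins after a glycine near the C-terminus and so ready them for conjugation. The last 30 coding bases of each mouse gene (mm9, coding strand, stop codon included) are shown with the codon of that glycine in capitals.
Map1lc3a: tacgcctcccaagaaaccttcGGCttctga
Map1lc3b: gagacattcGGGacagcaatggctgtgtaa
Gabarap: tacagtgatgaaagcgtctatGGTctgtga
Gabarapl1: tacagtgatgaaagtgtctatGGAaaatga
Gabarapl2: tacagcggagagaacacttttGGCttctga
The glycine was codon 120 in both LC3 genes and codon 116 in the 3 GABARAP genes. Map1lc3b carried 5 codons after it and each of the other genes 1. Coding sequences were most alike between Gabarap and Gabarapl1 (74.6% identical bases) and between Map1lc3a and Map1lc3b (73.6%), and least alike between Map1lc3b and Gabarap (48.5%). The longest run of bases shared by any pair was 17 bases, shorter than a read of 100 bases. In the mouse genome these genes lie at chr2:155102033-155103809 (Map1lc3a, plus strand), chr8:124114368-124121947 (Map1lc3b, plus), chr11:69804645-69808453 (Gabarap, plus), chr6:129483218-129492349 (Gabarapl1, plus) and chr8:114464603-114477512 (Gabarapl2, plus).

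The table holds normalized counts, that is reads per gene divided by a size factor per library and not by gene length, so levels are compared between animals for 1 gene unless stated otherwise. Between 7815326 and 18387599 reads per library were recovered from the values. Of the NM-R libraries, ssNM-R 2, ssNM-R 3 and lsNM-R 1 held 7815326 to 8985705 reads. The libraries of ssNM-R 6, lsNM-R 4 and lsNM-R 5 held 16883689 to 18387599. These depth classes were unevenly spread over the cohorts, so depth and cohort were partly confounded. The 31 genes took 0.267% to 0.284% of the reads in mice and 0.354% to 0.411% in NM-Rs. Summed marker lists of spleen cells differed between the species, apart from the macrophage list, whose sums overlapped. Erythroid genes (16 of 18 in the table) summed to 29743 normalized counts in mouse 1, 71175 and 89677 in mice 2 and 3, and 208611 to 311380.5 in NM-Rs. B cell genes (11 of 12) summed to 61281 to 62584 in mice and 3617 to 8949 in NM-Rs, and T cell genes (13 of 14) to 18452 to 19983 and 4487 to 9323. Granulocyte genes (9 of 18) summed to 8233 to 10679 in mice and 26856 to 46219 in NM-Rs, and megakaryocyte genes (7 of 12) to 3406 to 4882 and 7147 to 12912. Macrophage genes (12 of 14) summed to 62563 to 79142 and 73313 to 106719.8. Single markers did not all follow their sum. At an adjusted p under 0.05 in the test described below, 5 of 12 macrophage markers were higher and 5 lower in NM-Rs. Of megakaryocyte markers 3 of 7 were higher and 3 lower, and of granulocyte markers 7 of 9 were higher and 2 lower. All called erythroid markers were higher and all called B and T cell markers lower. Of all genes 39.7% were higher and 38.8% lower. Pancreas genes (6 of 12), markers from outside the spleen, summed to 389 to 523 and 139 to 242, with Cel at 0 in one species. No blood cell marker of these lists was at 0 throughout a species. In whole spleens, fewer cells of a type and less RNA per cell cannot be told apart, and the part of these lists in the differences below was not tested.

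Most autophagy genes differed between NM-R and mouse spleens, in both directions. With limma on log2(normalized count + 1), comparing the mean of both NM-R cohorts with mice, 15 of 31 genes were higher and 12 lower at an adjusted p under 0.05. Of all genes 78.5% passed (39.7% higher and 38.8% lower), with 78.1% in edgeR and 77.4% in DESeq2, so most genes outside this list were called as well. The median log2 fold change was 0.21 over the 31 genes and 0.01 over all genes. All values of one species lay beyond those of the other for 26 of the 31 genes (14 higher and 12 lower), against 72.6% of all genes (36.4% higher and 36.2% lower). Mouse 1 was the lowest of the mice in 17 of 31 genes (54.8%, against 34.0% of all genes), and without it 14 genes were higher and 12 lower. Among the genes of the rule with a row, the groups with a common direction were the PI3-kinase genes, all lower, and the ATG4 proteases, all higher. Kinases, lipid carriers, conjugation genes, ATG8 genes and receptors each held genes that rose and genes that fell.

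**Figure D1:**
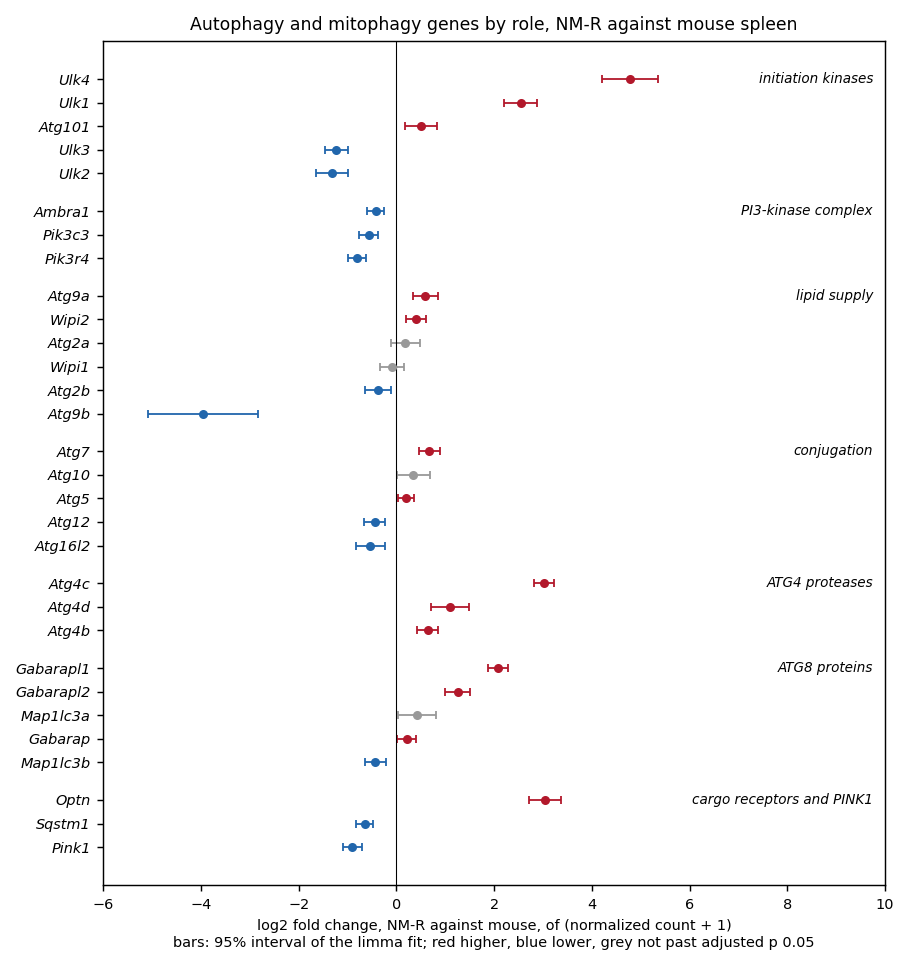
Log2 fold change of each gene between NM-R and mouse spleens (x axis, log2 of normalized count + 1) with the 95% interval of the limma fit, grouped by role. Red genes were higher, blue genes lower and grey genes not past the adjusted p of 0.05; Calcoco2, at 0 in all 3 mice, is left out.

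Among the initiation kinases Ulk1 was several times higher in NM-Rs and Ulk2 lower. Values are given for mice 1, 2 and 3, then ssNM-R 2, 3 and 6, then lsNM-R 1, 4 and 5. Ulk1, the kinase that receives the mTOR and AMPK signals, measured 929, 1208 and 1299 normalized counts in mice, against 8703, 6829 and 6127 in ssNM-Rs and 7207, 5939 and 5321 in lsNM-Rs. Every NM-R lay far above the highest mouse, and the log2 fold change was 2.54 ± 0.15 (SE), adjusted p = 1.98e-07. Ulk2, its closest relative, measured 1419, 1283 and 1148 in mice, against 533, 480 and 423 in ssNM-Rs and 712, 451 and 522 in lsNM-Rs. Every mouse stood above every NM-R, and Ulk2 fell by 1.32 on the log2 scale (SE 0.15, adjusted p = 1.70e-05).

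Ulk3, a kinase also tied to Hedgehog signalling, measured 773, 679 and 703 in mice, against 310, 332 and 303 in ssNM-Rs and 326, 254 and 307 in lsNM-Rs. The mice again lay above all NM-Rs, with a log2 fold change of -1.23 ± 0.11 (SE), adjusted p = 2.36e-06. Ulk4, which encodes a pseudokinase, was near the detection limit in mice at 9.03, 14.1 and 5.24 normalized counts (5 to 13 reads). It measured 306, 278 and 240 in ssNM-Rs and 297, 248 and 243 in lsNM-Rs, with a log2 fold change of 4.77 ± 0.25 (SE), adjusted p = 9.56e-08. No NM-R came near the mouse values. Atg101, a subunit of the ULK1 complex, ranged from 251 to 365 in mice and from 361 to 533 in NM-Rs. The groups overlapped at lsNM-R 5, and the log2 fold change was 0.50 ± 0.14 (SE), adjusted p = 0.00892. The normalized counts of the 5 genes summed to 3479 ± 85.6 (SD, n = 3) in mice and 8237 ± 1325 (SD, n = 6) in NM-Rs, and Ulk1 held most of the latter.

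The 3 genes of the lipid kinase arm that had a row under the rule were all lower. Pik3c3 encodes VPS34, the catalytic subunit of the class III PI3-kinase, and measured 857, 860 and 864 in mice, against 600, 546 and 528 in ssNM-Rs and 558, 661 and 597 in lsNM-Rs. Pik3r4, its regulatory subunit VPS15, measured 1450, 1310 and 1297 in mice, against 752, 757 and 726 in ssNM-Rs and 742, 799 and 853 in lsNM-Rs. Neither gene had an NM-R value within reach of the mice. The log2 fold changes were -0.57 ± 0.09 (SE) for Pik3c3 (adjusted p = 1.50e-04) and -0.81 ± 0.08 (SE) for Pik3r4 (adjusted p = 6.49e-06). Ambra1, an activator that binds the Beclin 1 part of the complex, ranged from 1371 to 1412 in mice and from 971 to 1124 in NM-Rs. It fell by 0.42 (SE 0.08, adjusted p = 6.71e-04). The summed level of the 3 genes was 3606 ± 62.1 (SD, n = 3) normalized counts in mice and 2395 ± 45.1 (SD, n = 6) in NM-Rs.

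Genes of lipid supply and of the PI3P effectors were divided. Atg9b, a paralogue of the lipid scramblase gene Atg9a, measured 18.1, 20.7 and 26.2 normalized counts in mice, against 0, 0 and 1.26 in ssNM-Rs and 2.82, 0 and 0 in lsNM-Rs. The mice held 62 reads and the NM-Rs 4, a ratio of pooled rates of 36.2 (exact 95% interval 13.4 to 137, counting error only), and its fitted difference had an adjusted p of 4.39e-05. Its 6 NM-R values were identical to those of 1 other row, Slc17a4. This match rests on 4 reads, and whether the 2 symbols share one measurement in NM-Rs was not tested. Atg9a ranged from 861 to 1021 in mice and from 1200 to 1790 in NM-Rs, with no overlap and a log2 fold change of 0.59 ± 0.12 (SE), adjusted p = 9.72e-04. Wipi2, which binds PI3P and recruits the conjugation machinery, ranged from 1633 to 1895 in mice and from 1988 to 2585 in NM-Rs. It was 0.41 ± 0.09 (SE) higher on the log2 scale (adjusted p = 0.00204).

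Its relative Wipi1 measured 360, 451 and 441 in mice, against 379, 413 and 357 in ssNM-Rs and 425, 364 and 419 in lsNM-Rs. These values were interleaved, and the log2 difference of -0.08 (95% interval -0.33 to 0.16) did not pass the test (adjusted p = 0.496). Atg2a, a lipid transfer protein gene, measured 1639, 1677 and 1494 in mice, against 2232, 1742 and 1998 in ssNM-Rs and 2082, 1578 and 1376 in lsNM-Rs. The mice lay inside the NM-R range, and the log2 difference of 0.18 (95% interval -0.12 to 0.47) did not pass (adjusted p = 0.247). Atg2b, the other ATG2 gene, ranged from 1238 to 1313 in mice and from 734 to 1145 in NM-Rs without overlap. It fell by 0.38 (SE 0.12, adjusted p = 0.0155), a call that was lost without mouse 2 (log2 fold change -0.36, adjusted p = 0.0590).

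In the conjugation system the E1-like Atg7 was higher while Atg12 and Atg16l2 were lower. Atg7, which activates both ATG12 and ATG8, ranged from 388 to 429 in mice and from 596 to 763 in NM-Rs, and its log2 fold change was 0.67 ± 0.09 (SE), adjusted p = 8.55e-05. Atg12, the ubiquitin-like protein joined to ATG5, ranged from 687 to 796 in mice and from 477 to 581 in NM-Rs. It fell by 0.45 (SE 0.10, adjusted p = 0.00199). Neither gene overlapped between species. Atg16l2, a paralogue of the scaffold ATG16L1, measured 778, 765 and 813 in mice, against 563, 632 and 543 in ssNM-Rs and 629, 401 and 505 in lsNM-Rs. All mice stood above all NM-Rs, of which lsNM-R 4 was the lowest, and Atg16l2 fell by 0.54 (SE 0.13, adjusted p = 0.00362).

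The acceptor of the ATG12 conjugate, Atg5, stayed within narrow ranges. It measured between 483 and 498 in mice and between 539 and 592 in NM-Rs, with a log2 fold change of 0.20 ± 0.07 (SE), adjusted p = 0.0279. The call was lost without mouse 2 (0.21, adjusted p = 0.0668), without mouse 3 (0.19, adjusted p = 0.0693) and without ssNM-R 3 (0.20, adjusted p = 0.0501). Atg10, the E2-like enzyme for ATG12, measured 87.3, 77.2 and 109 in mice, against 126, 126 and 135 in ssNM-Rs and 100, 98.7 and 108 in lsNM-Rs. Mouse 3 lay just above the lsNM-Rs and below the ssNM-Rs, and the log2 difference of 0.35 (95% interval 0.01 to 0.68) missed the threshold (adjusted p = 0.0555). Without mouse 3 it was 0.48 (adjusted p = 0.0195).

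All 3 ATG4 proteases of the table were higher in NM-Rs. Atg4c measured 253, 237 and 211 in mice, against 1955, 1818 and 1908 in ssNM-Rs and 1736, 2085 and 1901 in lsNM-Rs. The NM-R mean was 8.14 times that of mice, at 1901 ± 119 (SD, n = 6) against 234 ± 21.2 (SD, n = 3), and the adjusted p was 2.48e-09. Atg4d measured 510, 857 and 877 in mice, against 1981, 1639 and 1475 in ssNM-Rs and 1449, 1501 and 1341 in lsNM-Rs. Mouse 1 stood low among the mice, and no mouse reached the NM-Rs. The log2 fold change of Atg4d was 1.09 ± 0.17 (SE), adjusted p = 2.08e-04, and 0.84 without mouse 1. In mm9, 31.1% of its exon bases overlap Kri1 on the opposite strand, and whether reads were counted by strand is not given in the sources used here. Atg4b, the enzyme with the broadest action on ATG8 proteins, ranged from 881 to 1076 in mice and from 1314 to 1872 in NM-Rs. It was 0.64 ± 0.10 (SE) higher (adjusted p = 1.98e-04), with no overlap.

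Of the ATG8 genes whose coding ends are printed above, 3 rose, 1 fell and 1 did not pass. Gabarapl1 measured 824, 862 and 803 in mice, against 4161, 3482 and 3530 in ssNM-Rs and 3551, 3459 and 3018 in lsNM-Rs. Every NM-R lay far above every mouse, and the log2 fold change was 2.08 ± 0.09 (SE), adjusted p = 2.51e-08. Gabarapl2 measured 824, 1030 and 1133 in mice, against 2493, 2078 and 2499 in ssNM-Rs and 2281, 2548 and 2287 in lsNM-Rs. Its groups stood apart as well, with a log2 fold change of 1.26 ± 0.11 (SE), adjusted p = 3.76e-06. Gabarap, the founding member of the family, ranged from 2910 to 3490 in mice and from 3485 to 3959 in NM-Rs. Mouse 3 and ssNM-R 3 touched, and the log2 fold change of 0.21 ± 0.09 (SE) had an adjusted p of 0.0499. Leaving out mouse 1, mouse 2, ssNM-R 2, ssNM-R 3, ssNM-R 6, lsNM-R 4 or lsNM-R 5 raised that p to between 0.0572 and 0.170.

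Map1lc3b, the LC3 gene most often used as an autophagosome marker, ranged from 2112 to 2550 in mice and from 1437 to 1942 in NM-Rs. It fell by 0.44 (SE 0.10, adjusted p = 0.00187) without overlap between species. Map1lc3a measured 199, 183 and 188 in mice, against 227, 228 and 394 in ssNM-Rs and 240, 225 and 239 in lsNM-Rs. All NM-Rs exceeded all mice, but ssNM-R 6 stood far above the other NM-Rs, and the log2 difference of 0.42 (95% interval 0.02 to 0.81) missed the threshold (adjusted p = 0.0514). Without ssNM-R 6 it was 0.28 with an adjusted p of 0.0308, without ssNM-R 2 it was 0.48 (adjusted p = 0.0300) and without ssNM-R 3 also 0.48 (adjusted p = 0.0333). Altogether the ATG8 genes summed to 7497 ± 649 (SD, n = 3) normalized counts in mice and 11515 ± 575 (SD, n = 6) in NM-Rs.

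Among the 3 cargo receptors of the rule with a row, the gene with the most normalized counts differed between the species. These counts are not divided by length, and levels per length were not available for NM-Rs. Calcoco2, which encodes NDP52, a receptor for ubiquitin-coated bacteria and mitochondria, had 0 reads in all 3 mice. It measured 834, 872 and 1028 normalized counts in ssNM-Rs and 746, 807 and 838 in lsNM-Rs, and was thus at least 272-fold higher in NM-Rs against a floor of 3 reads in each mouse library. Such rows were not rare, since 351 genes were at 0 in all 3 mice and 149 in all 6 NM-Rs, but only 5 of the 351 had a higher NM-R mean than Calcoco2, and the median NM-R mean of the 351 was 6.90 normalized counts. The mouse gene is annotated as protein coding in mm9 (chr11:95960640-95973278, minus strand) with no exon overlap to another gene. Of its 100-base windows 21.1% recur elsewhere in the genome. Optn, coding for the PINK1-linked receptor optineurin (chr2:4941688-4985097, minus strand), measured 475, 567 and 623 in mice, against 4911, 3714 and 4323 in ssNM-Rs and 4972, 5736 and 3813 in lsNM-Rs. NM-R values exceeded the mice throughout, on average 8.25 times, with a log2 fold change of 3.03 ± 0.15 (SE), adjusted p = 5.24e-08.

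Sqstm1, coding for the receptor p62, which is itself degraded by autophagy, went the other way. It measured 3851, 3765 and 3983 in mice, against 2442, 2747 and 2875 in ssNM-Rs and 2381, 2158 and 2232 in lsNM-Rs. The mice lay highest, the ssNM-Rs between and the lsNM-Rs lowest, with no overlap among the 3 groups, and the NM-R to mouse log2 fold change was -0.65 ± 0.08 (SE), adjusted p = 3.58e-05. In mm9, 17.3% of its exon bases overlap 3010026O09Rik on the opposite strand. Pink1, the kinase that labels damaged mitochondria, measured 1867, 1976 and 1939 in mice, against 985, 1058 and 1072 in ssNM-Rs and 1131, 1031 and 900 in lsNM-Rs. No NM-R approached the mice, and Pink1 fell by 0.91 (SE 0.09, adjusted p = 5.53e-06).

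**Figure D2:**
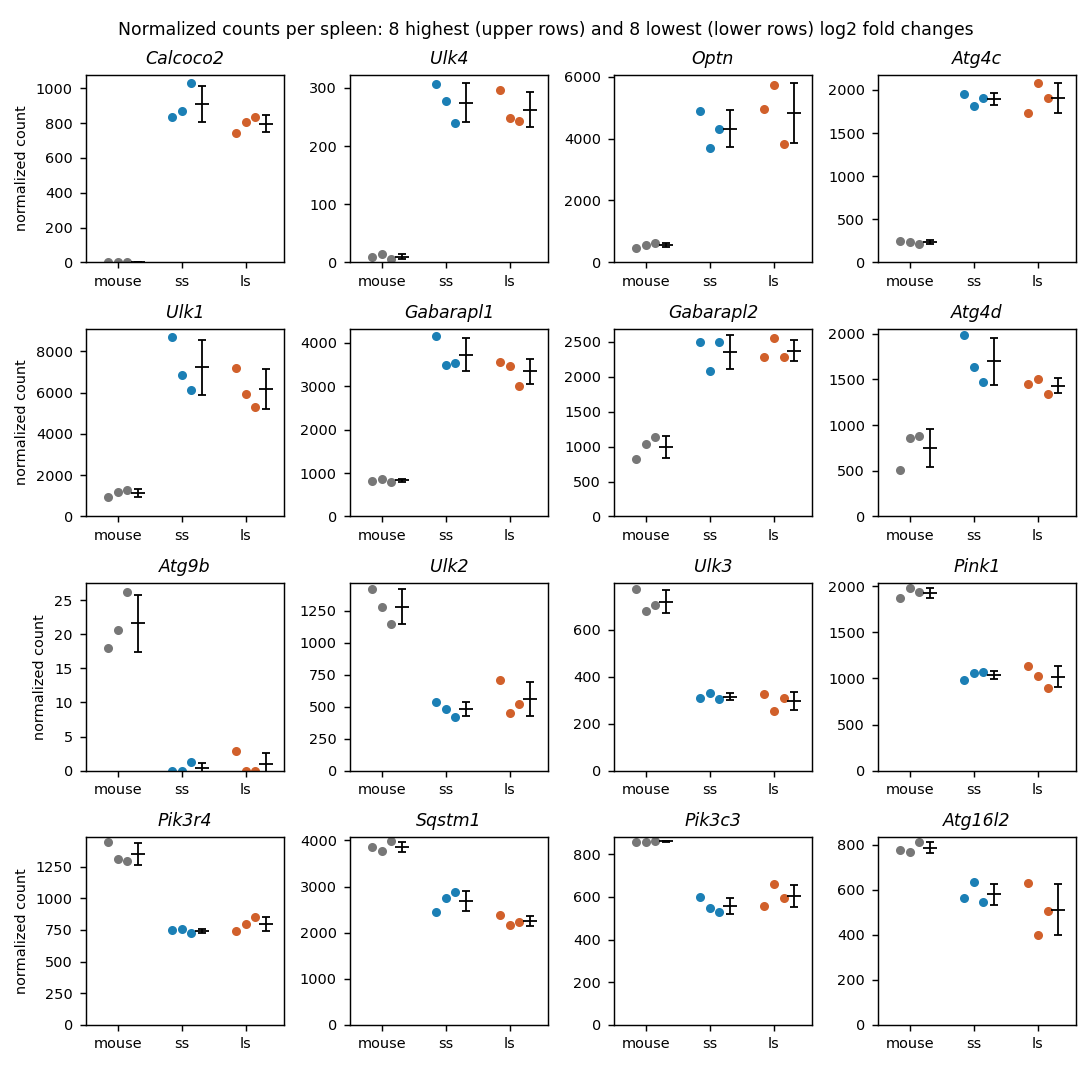
Normalized counts (y axis, from 0) in each spleen of the 3 mice, 3 ssNM-Rs (ss) and 3 lsNM-Rs (ls), with mean ± SD (n = 3) beside the points, for the 8 highest log2 fold changes (upper rows) and the 8 lowest (lower rows). In each panel the NM-R spleens of both cohorts lie on the same side of the mice, as for Atg4c at 1736 to 2085 against 211 to 253. The panels were picked by this difference, so the separation is not a further result.

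The proportions within gene families also differed between the species. These shares are of normalized counts, which are not divided by length, and are given without a test. Ulk1 made up 39.6% to 53.1% of Ulk1 plus Ulk2 in mice and 91.0% to 94.2% in NM-Rs. Of the ATG8 counts, Map1lc3b held 31.1% ± 0.26 (SD, n = 3) in mice and 14.9% ± 1.15 (SD, n = 6) in NM-Rs, while Gabarapl1 held 11.1% ± 1.14 and 30.6% ± 2.09. Gabarap was the largest ATG8 share in mice at 42.0% and stood at 31.7% in NM-Rs, close to Gabarapl1. Atg4c held 12.2% ± 2.91 of the Atg4b to Atg4d counts in mice and 38.2% ± 3.23 in NM-Rs, where it was the largest of the 3 in every spleen but ssNM-R 2. Sqstm1 held 87.5% ± 1.37 of the receptor counts in mice and 31.5% ± 4.48 in NM-Rs, and Optn 12.5% ± 1.37 and 57.6% ± 5.80. In every spleen of a species the leading receptor was the same, Sqstm1 in mice and Optn in NM-Rs.

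**Figure D3:**
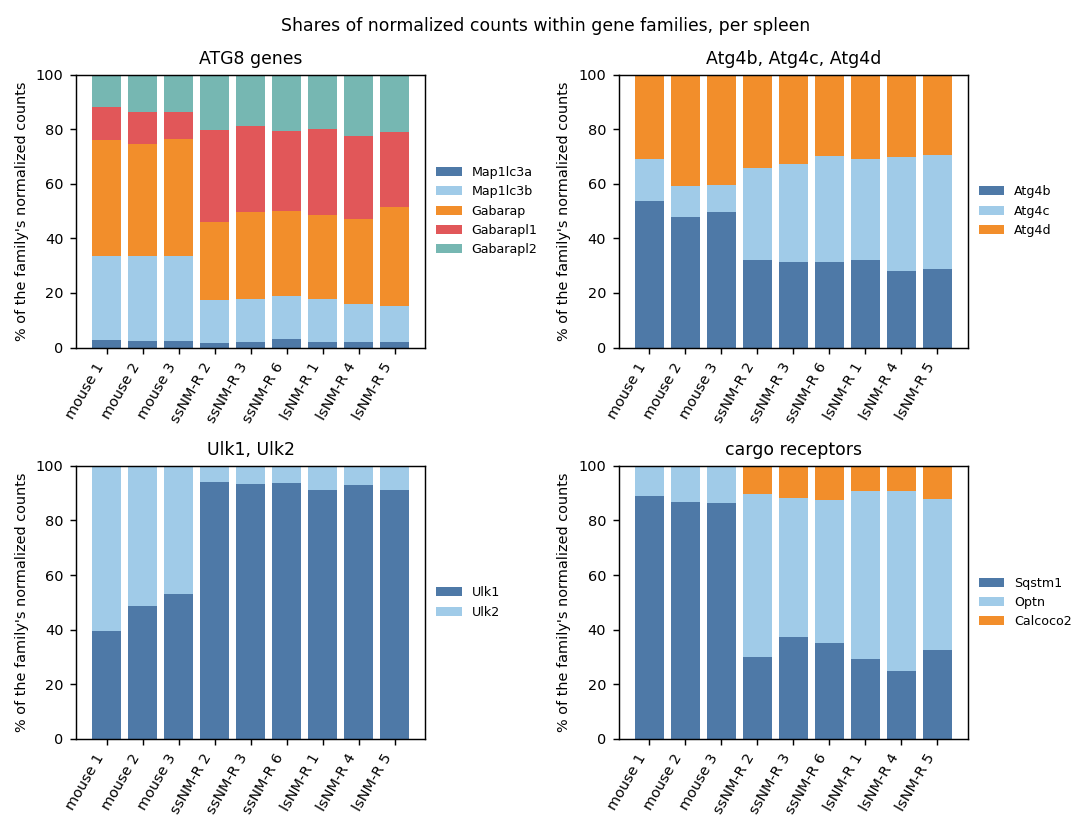
Share of each gene (y axis, % of the normalized counts of its family) in every spleen for the ATG8 genes, the ATG4 proteases, Ulk1 with Ulk2, and the cargo receptors. Ulk1 takes at most 53.1% in a mouse and at least 91.0% in an NM-R; Optn takes at most 13.5% in a mouse and at least 50.6% in an NM-R.

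Levels between genes could be compared per length in mice alone, for the 30 genes found in the mm9 annotation (Atg101 was not matched by symbol). Per kilobase of exon, Gabarap led at 1710 ± 163 normalized counts (SD, n = 3), ahead of Map1lc3b (1360 ± 128), Sqstm1 (1152 ± 32.6) and Pink1 (721 ± 20.7). These 4 did not overlap with one another or with the gene that followed. Gabarapl1 (470 ± 16.9) and Gabarapl2 (428 ± 67.7) came next and overlapped. From Atg4d (294 ± 81.2) down to Atg16l2 (202 ± 6.35), 12 neighbouring genes in the order overlapped each with the following one. Atg4c (69.7 ± 6.34) and Atg10 (56.7 ± 10.1) were the lowest but for Atg9b (5.49 ± 1.06), Ulk4 (1.19 ± 0.56) and Calcoco2 at 0. Of the 6 genes that rose most in NM-Rs, Calcoco2, Ulk4 and Atg4c stood at places 30, 29 and 26 of the mouse order. Optn stood at place 22, Ulk1 at 14 and Gabarapl1 at 5. The mouse level is also the denominator of the fold change, so a low place and a high rise are not independent.

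Each NM-R cohort was also set against the mice. The 2 comparisons share the mice, so their values are given side by side only. Of the 31 genes, 15 were higher and 12 lower in ssNM-Rs, where 75.5% of all genes were called (38% higher and 37.5% lower). In lsNM-Rs 13 were higher and 11 lower, and 75% of all genes were called (38.1% higher and 37% lower). Log2 fold changes in ssNM-R and lsNM-R were 2.65 and 2.43 for Ulk1, 2.96 and 3.11 for Optn, 2.16 and 2.01 for Gabarapl1, and 3.02 and 3.02 for Atg4c. For the lower genes they were -1.42 and -1.21 for Ulk2, -0.89 and -0.92 for Pink1, and -0.53 and -0.78 for Sqstm1. Calls past the threshold in only one cohort were Atg10 (0.51, adjusted p = 0.0210, and 0.18, adjusted p = 0.360), Map1lc3a (0.53, adjusted p = 0.0375, and 0.31, adjusted p = 0.196), Atg101 (0.63, adjusted p = 0.00623, and 0.38, adjusted p = 0.0615), Atg2b (-0.48, adjusted p = 0.0100, and -0.27, adjusted p = 0.0987) and Atg5 (0.16, adjusted p = 0.119, and 0.25, adjusted p = 0.0226). The test of the difference itself is the comparison of the cohorts, where none of these genes passed.

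Between enlarged and small NM-R spleens no autophagy gene passed the adjusted threshold. limma called 0 of 31 genes, and 0% of all genes, edgeR likewise 0 of 31 and 0% of all, and DESeq2 0 of 31 and 0.44% of all. At an unadjusted p under 0.05 there was 1 gene of 31 in each of the 3 tools, against 8.79% of all genes in limma (3.55% in the lower direction). This was Sqstm1, whose 3 lsNM-R values (2381, 2158 and 2232) all lay under the 3 ssNM-R values (2442, 2747 and 2875), with lsNM-R 1 and ssNM-R 2 close together. Its log2 fold change was -0.25 (95% interval -0.46 to -0.04, limma adjusted p = 0.521). Without ssNM-R 3, lsNM-R 4 or lsNM-R 5 no gene passed the unadjusted threshold, without lsNM-R 1 there were 4 and without ssNM-R 2 there were 2. Read depth was uneven over the cohorts, and with a term for the depth class of the library there were 3. The cohorts did not overlap for 4 genes, Atg5 (higher in lsNM-R) and Atg4b, Atg10 and Sqstm1 (lower), which is 12.9% of the 31 against 13.1% of all genes (6.84% higher and 6.23% lower).

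Of the other 3 genes without overlap, Atg5 measured 539 to 555 in ssNM-Rs and 575 to 592 in lsNM-Rs (log2 fold change 0.09), Atg4b 1532 to 1872 and 1314 to 1516 (-0.23, limma adjusted p = 0.595), and Atg10 126 to 135 and 98.7 to 108 (-0.33, limma adjusted p = 0.612). In absolute size the log2 fold change of Atg10 was the largest of the 31 genes between the cohorts. Granulocyte marker sums also stood apart between the cohorts, at 26856 to 35171 normalized counts in ssNM-Rs and 36483 to 46219 in lsNM-Rs, with 5 of the 9 markers higher and 1 lower in lsNM-Rs at an unadjusted p under 0.05 (66.7%) and 0 past the adjusted threshold. The sums of the other marker lists overlapped between the cohorts, and the part of the granulocyte genes in the differences of Sqstm1, Atg4b, Atg10 and Atg5 was not tested. The sign was negative for 19 of 31 genes (61.3%, against 48.0% of all genes). Apart from Atg9b, near zero in both cohorts, every 95% interval lay between -0.72 and 0.60, so differences inside these bounds remain possible with 3 spleens per cohort. The median coefficient of variation within a group, over 29 genes without Calcoco2 and Atg9b, was 8.45% for mice, 8.02% for ssNM-Rs and 8.64% for lsNM-Rs.

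**Figure D4:**
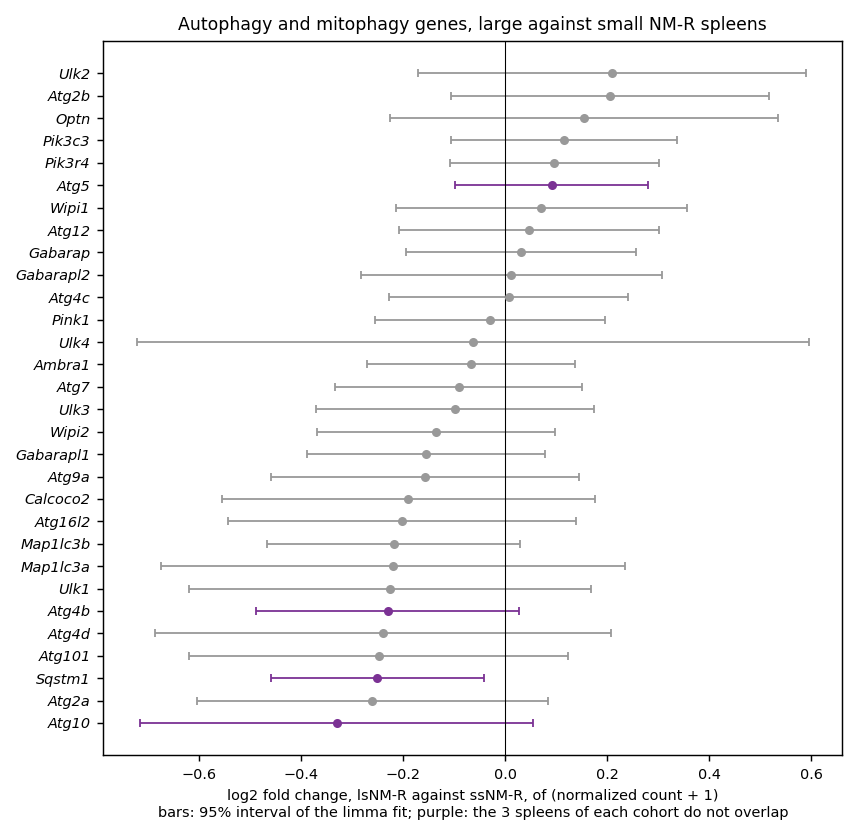
Log2 fold change of each gene between lsNM-R and ssNM-R spleens (x axis, log2 of normalized count + 1) with the 95% interval of the limma fit; Atg9b is left out. Purple marks the 4 genes whose 3 spleens per cohort did not overlap, and of the intervals only that of Sqstm1 (-0.46 to -0.04) does not reach 0.

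Beyond the 31 genes, 58 further genes of the pathway were measured, of which 20 were higher (34.5%, against 39.7% of all genes) and 24 lower (41.4%, against 38.8%) in NM-Rs and 14 did not pass. Their called share of 75.9% was thus near the 78.5% of all genes. Of the genes of lysosome fusion and maturation 9 of 14 were lower (64.3%) and 3 higher (21.4%). Snap29, a SNARE for the fusion of autophagosomes with lysosomes, measured 1359 ± 29.7 (SD, n = 3) in mice and 198 ± 24.1 (SD, n = 6) in NM-Rs, a log2 fold change of -2.78 ± 0.11 (SE), adjusted p = 1.56e-08. Among the mTOR, AMPK and TFEB regulators 10 of 21 were lower and 6 higher, 76.2% called. Deptor, an inhibitor of mTOR, measured 475 ± 60.6 in mice against 26.8 ± 7.86 in NM-Rs (log2 fold change -4.16, adjusted p = 3.97e-07). Sesn1, a stress sensor upstream of mTOR, measured 2528 ± 354 and 541 ± 61.9 (-2.22, adjusted p = 1.05e-07), and Foxo1, a transcription factor that activates autophagy genes, 2631 ± 108 and 664 ± 157 (-2.02, adjusted p = 5.21e-07). Tfeb, the master regulator of lysosomal genes, fell by 1.80 (982 ± 22.7 and 282 ± 35.3, adjusted p = 3.15e-07) and was named after its value was seen. Foxo3, of the same list, went the other way and rose by 0.66 (2471 ± 490 and 3915 ± 771, adjusted p = 0.00583). It was likewise named after its value was seen.

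Partners of the phagophore and of selective autophagy rose in 6 and fell in 4 of 14 cases (42.9% and 28.6%, against 39.7% and 38.8% of all genes). Ccpg1, a receptor for autophagy of the endoplasmic reticulum, rose by 3.21 on the log2 scale (288 ± 13.6 and 2675 ± 253, adjusted p = 1.27e-09). Epm2a, coding for the glycogen phosphatase laforin, rose by 2.28 (101 ± 22.1 and 499 ± 101, adjusted p = 2.94e-06), and Ncoa4, the receptor for ferritin, by 1.81 (1858 ± 171 and 6796 ± 2358, adjusted p = 2.78e-05). Mitophagy partners rose in 5 and fell in 1 of 9 cases, 66.7% called against 78.5% of all genes. Mfn2, a mitofusin of the outer mitochondrial membrane, rose by 3.08 (1113 ± 22.4 and 9530 ± 1768, adjusted p = 4.15e-08). Between the cohorts limma, edgeR and DESeq2 each called 0 of the 58 genes, and 10 had an unadjusted p under 0.05 in limma (7 higher and 3 lower in lsNM-R, 17.2% against 8.79% of all genes), 9 in edgeR and 10 in DESeq2.

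The mouse genes were further described by their annotation in mm9. Exons of 3 of the 30 genes overlapped another gene over more than 5% of their bases, each on the opposite strand (Atg4d, Sqstm1 and, for 7.45% with Nos3, Atg9b). In 5 genes more than 5% of the 100-base windows recurred in the genome, namely Atg7 (31%), Gabarapl2 (22.4%), Calcoco2 (21.1%), Map1lc3b (17.4%) and Ulk1 (11.4%), and in 22 genes none did. These windows were counted in mice only, so how many reads of such windows the counting left out was not tested for either species. The 250 bases before the start of each gene were searched on both strands for CACGTG, the core of the motif bound by TFEB, for the full CLEAR palindrome that contains it, and for AGATAA, a motif of GATA factors. CACGTG was in 3 of 30 promoters (Atg5, Gabarap and Wipi1, 10%, against 7.79% of 10440 promoters), the full palindrome in 0 (against 0.307%) and AGATAA in 3 (Atg4b, Atg4d and Gabarap, 10%, against 6.56%). The genes holding them included genes that were higher in NM-Rs and Wipi1, which did not pass the test.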

How the data were processed

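Spleens of 3 mice and of 3 NM-Rs per cohort were profiled by RNA sequencing. Organism and spleen size, as labelled, gave the groups. The labels and the methods disagree on instrument, library kit and the maker of the RNA kit. The authors aligned reads with STAR 2.5.3a to mm9 for mice and to hetGla2 for NM-Rs, counted them with HTSeq 0.10.0, and gave NM-R genes the names of mouse homologues. The signal values deposited by the authors are reads per gene divided by DESeq2 size factors over all 9 libraries, not by gene length.

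In each library 100% of values were whole multiples of one step (tolerance 0.001 reads), which returned whole reads. The median depth was 10965902 reads. Intervals and floors cover counting error only.

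Values were fitted as log2(normalized count + 1) in limma 3.58.1 (R 4.3.3), with trended eBayes and 1 mean per group over all 9 spleens, in 2-sided tests with Benjamini-Hochberg adjustment over 12946 genes and no filter on low values. Fold changes of low genes are understated by the pseudocount. The fits were tested on simulated data. Alternatives were pseudocounts of 0.5 and 5, a filter on a mean of 10 normalized counts, other scalings, untrended eBayes, only the compared groups, edgeR 4.0.16 (10111 genes called between NM-R and mouse) and DESeq2 1.42.0 (10024 called) on recovered reads, a replicate block, a depth term, identical rows counted once, and each spleen left out. Positions, exon lengths and sequences come from the mm9 genome and its GENCODE annotation, which matched 30 of 31 symbols.

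The replicate numbers in the titles number the animals across groups of different species. Deviations of same-numbered mice and NM-Rs from their group means correlated at 0.010, -0.0045 and 0.00076 over all genes. Pairs with unlike numbers ran from -0.054 to 0.054. With means of so few animals, these values cannot tell whether same-numbered libraries were handled together. The main fit did not use the numbers as pairs.

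All genes of the rule are named. Values in every spleen are given for the 8 highest and 8 lowest log2 fold changes past the threshold, for genes past an unadjusted p of 0.05 between the cohorts and for genes not past the threshold between the species. Of the other pathway genes, the 4 highest and 4 lowest are named among those averaging 10 or more normalized counts per species, and others are said to have been added later. The genes and lists were chosen with earlier results of these data known.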

Additional observations from a re-analysis of the deposited data

Results flagged for a closer look

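Over the 6 NM-R spleens, 1 spleen stood apart from the rest in 3 of the 31 autophagy genes by Dixon's test. Chance meets this rule in about 1 of 20 genes if all 6 values come from 1 normal distribution, which was not checked. The share of all genes that meet it was not computed. Map1lc3a measured 394 normalized counts in ssNM-R 6, whereas the other NM-Rs lay between 225 and 240. Atg7 measured 763 in ssNM-R 3, against 596 to 657 in the others. Ulk3 measured 254 in lsNM-R 4, the only female, against 303 to 332 in the others. These are 3 different spleens.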

How the results depend on the processing

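All counts of called genes stayed within 1.5 times their value under every alternative that could be run, with 13 to 17 of the 31 autophagy genes higher and 11 or 12 lower in NM-Rs. Leaving out 1 spleen gave 13 to 15 higher and 11 or 12 lower. Of the single gene values between NM-R and mouse, 582 kept direction and side of the threshold, 20 lost the call, 13 gained it and 3 turned. Calls were lost for Gabarap, Atg5 and Atg2b and gained for Atg10, Map1lc3a and Atg2a, and the cause was not tested. Wipi1 turned to 0.010 with spleens rescaled to the same upper quartile (where the median of all genes was 0.10 rather than 0.01), to 0.020 with quantile normalization and to 0.032 with the replicate block. With the replicate block 14 genes were higher and 11 lower in NM-Rs, and 13 higher and 12 lower in ssNM-Rs. It ended the calls of Atg2b (-0.23, adjusted p = 0.0723), Atg5 (0.20, adjusted p = 0.127) and Gabarap (0.19, adjusted p = 0.168) and made one of Atg2a (0.33, adjusted p = 0.0263). It was not run for lsNM-R with mouse, which share 1 number, nor between the cohorts, which share none.

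Between lsNM-R and ssNM-R, 17 of the single gene values turned. Apart from Map1lc3a, the genes concerned had main values near zero or few reads. Map1lc3a stood at -0.22 and turned only without ssNM-R 6, the spleen that stood far above the other NM-Rs. The values that turned in edgeR were Atg9b (-0.16) and Gabarapl2 (-7.1e-05). With a term for the depth class of the library they were Atg4c (-0.029), Gabarap (-0.0011), Gabarapl2 (-0.023) and Ulk4 (0.029). With each spleen left out in turn, values ran from -0.16 to 0.019 for Ulk4, -0.059 to 0.073 for Atg4c, -0.076 to 0.058 for Gabarapl2, -0.35 to 0.043 for Map1lc3a, -0.39 to 0.65 for Atg9b, -0.17 to 0.0076 for Ulk3, -0.0067 to 0.13 for Atg12, -0.023 to 0.065 for Gabarap and -0.11 to 0.058 for Pink1. The number of genes at an unadjusted p under 0.05 ran from 0 to 4. The cause of these turns was not tested. At 7815326 to 18387599 reads per library, Calcoco2 and Ulk4 in mice and Atg9b in NM-Rs lay at or near the detection limit, and why was not tested. All genes rest on 3 animals per group.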

Other observations

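Genes of 2 complexes of the wider pathway went in both directions between the species, as did all genes (39.7% higher and 38.8% lower). Of the AMPK subunits, the beta subunits Prkab1 and Prkab2 were 1.16 and 1.71 higher in NM-Rs on the log2 scale (adjusted p = 7.65e-06 and 1.64e-07) and the gamma subunit Prkag2 1.32 higher (adjusted p = 2.19e-07), while the catalytic subunit Prkaa1 fell by 0.59 (adjusted p = 2.48e-04). The other catalytic subunit, Prkaa2, measured 21.9 ± 6.18 (SD, n = 3) and 20.6 ± 7.81 (SD, n = 6) normalized counts and did not pass (adjusted p = 0.716). Of the HOPS complex, which tethers autophagosomes to lysosomes, Vps11 and Vps39 rose by 0.68 and 0.45 (adjusted p = 1.33e-04 and 0.0101), Vps33a and Vps41 fell by 1.25 and 0.29 (adjusted p = 2.64e-06 and 0.00896), and Vps16 and Vps18, at 0.12 and 0.08, did not pass (adjusted p = 0.167 and 0.445). Stx17, the SNARE partner of Snap29 on the autophagosome, fell by 0.94 (adjusted p = 4.96e-05). These genes were chosen from the lists after their values were seen.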
